A study of Homo sapiens with 9 samples.

Results

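CBX2, CBX6, CBX7, CBX8, BMI1, PCGF2, RING1, RNF2 and KDM2B encode subunits of Polycomb repressive complex 1 (PRC1), and their RNA was followed across 3 breast cancer cell lines in which EZH2 was targeted. They were taken by symbol from the expression table, which held all 9 of them among 58037 genes, and this rule used no measured value. The study profiled total RNA by RNA sequencing in the established human lines MDA-MB-436, MDA-MB-453 and MDA-MB-231, all assigned by the submitters to triple-negative breast cancer. Each line gave 1 library labelled GSK343 (cells given a small-molecule inhibitor of the EZH2 methyltransferase), 1 labelled shEZH2 (cells carrying a short hairpin RNA against EZH2) and 1 control, so each of the 3 groups held 3 libraries, 1 per line. The labels give no treatment for the controls, while the column headers call them shControl. They give neither dose, duration, hairpin sequence nor clonality, and no line has a second library of the same condition. In comparisons of labels the replicates are therefore the lines, and p-values measure the spread between lines in the size of a change. Where MDA-MB-436 is set against MDA-MB-231, the 3 differently labelled libraries of each line serve as its replicates.

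PRC1 is a chromatin complex that places a single ubiquitin on histone H2A and compacts its target genes. Its catalytic core pairs RING1 or RNF2, the E3 ligase subunits, with a PCGF protein such as BMI1 or PCGF2. In canonical PRC1 a chromobox (CBX) protein reads the H3K27 methylation written by EZH2 in PRC2, whereas in a variant complex KDM2B recruits the core to unmethylated CpG islands. In breast and other tissues the complex is known for keeping developmental genes and the INK4 cell cycle inhibitors silent.

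The genes lie on 6 chromosomes in GRCh38 (GENCODE 29). CBX2 (chr17:79778132-79787983, plus strand) and CBX8 (chr17:79792132-79801683, minus strand) are neighbours with 4.148 kb between them. CBX6 (chr22:38861450-38872314) and CBX7 (chr22:39120167-39152674) share the minus strand of chromosome 22 with 247.852 kb between them. PCGF2 (chr17:38733897-38749817, minus strand) is also on chromosome 17. BMI1 is at chr10:22321211-22331484 on the plus strand, RING1 at chr6:33208495-33212722 on the plus strand, RNF2 at chr1:185045364-185102608 on the plus strand and KDM2B at chr12:121429097-121581015 on the minus strand.

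RefSeq promoter windows (GRCh38.p14) were held for 7 of the 9 genes, in 11 windows, of which the 250 bases before the transcript start were searched on both strands. The 4 shown belong to BMI1 and CBX7, the members nearest to the threshold for the mean of both labels, and to RING1 and RNF2, the ligase pair with the widest differences between lines. Capitals mark CACGTG (the E-box word) in BMI1, and GGGGCGGGG (an SP1 word, on either strand) and CCAAT in CBX7.
BMI1 promoter (chr10:22320849-22321098, plus strand): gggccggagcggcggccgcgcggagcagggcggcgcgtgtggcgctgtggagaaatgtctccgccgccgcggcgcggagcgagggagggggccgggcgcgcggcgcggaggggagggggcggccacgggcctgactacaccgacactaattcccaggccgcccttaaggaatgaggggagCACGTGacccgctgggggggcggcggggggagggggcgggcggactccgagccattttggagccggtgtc
CBX7 promoter (chr22:39152681-39152930, minus strand): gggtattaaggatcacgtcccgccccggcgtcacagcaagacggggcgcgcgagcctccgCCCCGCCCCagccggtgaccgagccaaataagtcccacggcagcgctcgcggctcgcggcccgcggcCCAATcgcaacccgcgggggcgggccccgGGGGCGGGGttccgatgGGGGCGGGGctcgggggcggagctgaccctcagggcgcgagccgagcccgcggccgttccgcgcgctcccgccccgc
RING1 promoter (chr6:33208250-33208499, plus strand): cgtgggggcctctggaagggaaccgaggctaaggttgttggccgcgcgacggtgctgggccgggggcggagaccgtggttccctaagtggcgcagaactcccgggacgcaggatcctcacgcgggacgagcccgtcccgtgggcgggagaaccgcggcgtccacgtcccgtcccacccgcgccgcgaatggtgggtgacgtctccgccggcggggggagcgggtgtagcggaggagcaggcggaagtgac
RNF2 promoter (chr1:185045308-185045557, plus strand): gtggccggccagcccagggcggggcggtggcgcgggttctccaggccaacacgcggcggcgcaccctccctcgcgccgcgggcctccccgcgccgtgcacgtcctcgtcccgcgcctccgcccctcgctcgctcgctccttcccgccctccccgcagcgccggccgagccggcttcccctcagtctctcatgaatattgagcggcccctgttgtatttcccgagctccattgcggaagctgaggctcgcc
CACGTG was found in the BMI1 window shown and in that of CBX6, and in 6.34% of 35116 promoter windows. GGGGCGGGG occurred 3 times in CBX7 and in 15.1% of all windows, and CCAAT once in CBX7 and in 32.0% of all windows. The RING1 and RNF2 windows held none of the words searched, which also included CCGGAAG (8.52% of all windows) and TTTGGCGC or TTTCCCGC (1.93%). The 4 windows held 35, 41, 34 and 34 CpG dinucleotides in BMI1, CBX7, RING1 and RNF2, against a median of 11 over all windows. PCGF2 was at the other end, with 1 CpG in its window (chr17:38746629-38746878, minus strand). That window lies inside the GENCODE gene model and not at its annotated start, where CpG were not counted.

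Depth was similar in all libraries, at 14757043 to 18283426 reads implied by the values. Some RNA levels were unexpected for the labels, which were kept as given. EZH2 had 7.53, 7.99 and 5.77 RPKM (reads scaled to gene length and library size) in the GSK343 libraries of MDA-MB-436, MDA-MB-453 and MDA-MB-231, and 37.4, 16.2 and 16.4 RPKM in the shEZH2 libraries, against 38.9, 42.3 and 27.4 RPKM in the controls. EZH2 RNA was thus lowest under the label of the inhibitor (log2 fold change -2.19, adjusted p = 0.000424) and did not pass the test under that of the hairpin (-0.70, adjusted p = 0.0597), so the groups are called here the libraries labelled GSK343 and shEZH2. Without the GSK343 or the shEZH2 library of MDA-MB-436, EZH2 also passed under the shEZH2 label (-0.70 and -1.03), as it did after rescaling by median ratios (-0.80). None of 6 luminal markers was highest in a library labelled MDA-MB-453, a line known as luminal, in any condition. In the GSK343 libraries the MDA-MB-453 value lay between those of the other lines for 9 of 9 PRC1 genes (73.8% of all genes tested), in the shEZH2 libraries for 7 (83%), and in the controls for 2 (47.1%). Over the 12965 genes tested, 810 rose and 208 fell under the GSK343 label (517 and 444 after rescaling by median ratios), and 1082 rose and 295 fell under the shEZH2 label (796 and 620). Without the MDA-MB-453 libraries those counts dropped to 43 genes under GSK343 and 16 under shEZH2.

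The 9 genes spanned a wide range of RNA levels. On the RPKM scale, CBX6 was the most abundant at 15.7 ± 2.07 (SD over 9 libraries), followed by BMI1 at 12.5 ± 3.10 and RNF2 at 12.3 ± 3.92. PCGF2 averaged 7.77 ± 1.07 RPKM, CBX2 4.89 ± 0.715, KDM2B 4.79 ± 0.717, RING1 4.34 ± 1.52 and CBX8 3.33 ± 1.06. CBX7 was the lowest at 1.47 ± 0.613 RPKM, above only 14.0% of the genes tested, whereas CBX6 stood above 73.9%. Neighbours in this order that differed by less than the larger SD of the pair were BMI1 and RNF2, CBX2 and KDM2B, KDM2B and RING1, and RING1 and CBX8. The reads behind the values ranged from 84 to 201 for RING1 and from 93 to 393 for CBX7 up to 1631 to 2551 for CBX6.

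**Figure D1:**
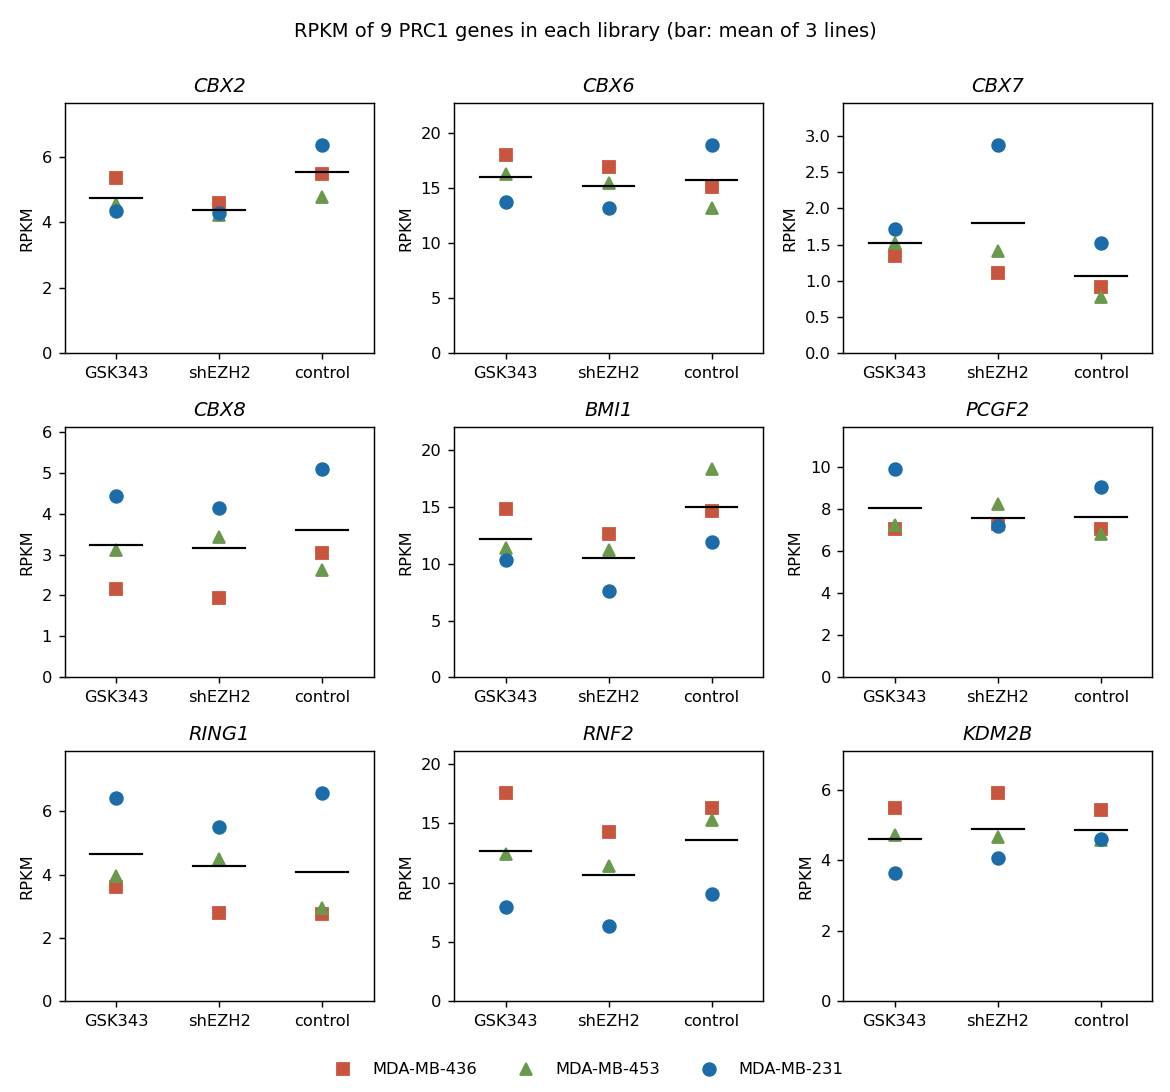
RPKM of each PRC1 gene (vertical axis) in the libraries labelled GSK343, shEZH2 and control (horizontal axis); each point is 1 library, its colour and shape give the line, and the bar is the mean of the 3 lines. RNF2 was highest in MDA-MB-436 and lowest in MDA-MB-231 under each label, whereas CBX2 was between 4.23 and 4.60 RPKM in all 3 shEZH2 libraries.

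None of the 9 PRC1 genes passed the threshold under either label. In limma, adjusted over all genes tested, 0 of 9 passed under the GSK343 label (7.85% of all genes did), 0 of 9 under the shEZH2 label (10.6%) and 0 of 9 for the mean of both labels against control (16.5%). At an unadjusted p under 0.05 the counts were 0 under GSK343 (25.8% of all genes), 3 under shEZH2 (28.6%; BMI1, RNF2 and CBX7) and 2 for the mean of both (32.9%; BMI1 and CBX7). The median log2 fold change of the 9 genes was -0.07 under GSK343 and -0.04 under shEZH2, beside 0.06 and 0.05 over all genes. The 95% confidence intervals of the 9 genes together reached from 0.655-fold to 1.58-fold under GSK343 and from 0.565-fold to 1.69-fold under shEZH2. In bulk RNA, fewer cells of a type and less RNA per cell cannot be told apart.

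BMI1, the PCGF subunit of canonical PRC1 and a known repressor of the INK4 locus, came nearest to the threshold. It had 14.8, 11.4 and 10.3 RPKM in the GSK343 libraries of MDA-MB-436, MDA-MB-453 and MDA-MB-231, and 12.7, 11.2 and 7.59 RPKM in the shEZH2 libraries, against 14.7, 18.4 and 11.9 RPKM in the controls. The shEZH2 libraries were lower than the control of their own line in all 3 lines, but the groups overlapped, and in MDA-MB-436 the GSK343 library stood level with its control. The log2 fold change was -0.48 ± 0.34 (95% confidence interval) under shEZH2 with limma's adjusted p = 0.0663, and -0.27 ± 0.34 under GSK343 with adjusted p = 0.291. For the mean of both labels it was -0.38 ± 0.29 (adjusted p = 0.0745). The call depended on scaling and on a single library. After rescaling by median ratios BMI1 passed under shEZH2 (-0.58, adjusted p = 0.0331), and also when the MDA-MB-436 control was left out (-0.63, adjusted p = 0.0305). For the mean of both labels the same changes gave -0.48 (adjusted p = 0.0272) and -0.52 (adjusted p = 0.0351). In the annotation, 23.3% of its exon bases are shared with the readthrough gene COMMD3-BMI1, which was listed at 0 RPKM in all 9 libraries. How the counting treated reads in shared bases was not checked, so the level of BMI1 is uncertain.

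PCGF2 (MEL18), the closest paralog of BMI1 and its alternative in canonical PRC1, showed no change past the test. It had 7.05, 7.26 and 9.94 RPKM in the GSK343 libraries of MDA-MB-436, MDA-MB-453 and MDA-MB-231, and 7.31, 8.24 and 7.23 RPKM in the shEZH2 libraries, against 7.06, 6.84 and 9.04 RPKM in the controls. The groups overlapped and the line with the highest value differed between labels. The log2 fold change was 0.07 ± 0.33 under GSK343 (adjusted p = 0.822) and -0.00196 ± 0.33 under shEZH2 (adjusted p = 0.995), and the first turned to -0.03 after rescaling by median ratios. Opposite-strand genes share 45.7% of its exon bases, and the strand setting of the counting is not given, so its level is uncertain.

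Of the catalytic ligases, RNF2 (RING1B) had 17.6, 12.5 and 7.99 RPKM in the GSK343 libraries of MDA-MB-436, MDA-MB-453 and MDA-MB-231, and 14.3, 11.4 and 6.35 RPKM in the shEZH2 libraries, against 16.3, 15.3 and 9.07 RPKM in the controls. All 3 shEZH2 libraries were below the control of their own line, while the groups overlapped and the lines stood further apart than the labels. Its log2 fold change was -0.34 ± 0.30 under shEZH2 (adjusted p = 0.125) and -0.11 ± 0.30 under GSK343 (adjusted p = 0.635). After rescaling by median ratios RNF2 passed under shEZH2 (-0.44, adjusted p = 0.0481). The direction 3 of 3 lines lower was shown under shEZH2 by CBX2, BMI1 and RNF2, beside 17.4% of all genes, and 3 of 3 higher by CBX7, beside 27.5%. Under GSK343 CBX2 was lower in 3 of 3 lines, beside 14.4% of all genes, and CBX7 higher in 3 of 3, beside 26.3%.

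RING1, the paralogous ligase, had 3.62, 3.94 and 6.41 RPKM in the GSK343 libraries of MDA-MB-436, MDA-MB-453 and MDA-MB-231, and 2.78, 4.50 and 5.51 RPKM in the shEZH2 libraries, against 2.75, 2.94 and 6.60 RPKM in the controls. The groups overlapped widely, with MDA-MB-231 highest under each label. The log2 fold change was 0.20 ± 0.35 under GSK343 (adjusted p = 0.460) and 0.09 ± 0.35 under shEZH2 (adjusted p = 0.747).

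**Figure D2:**
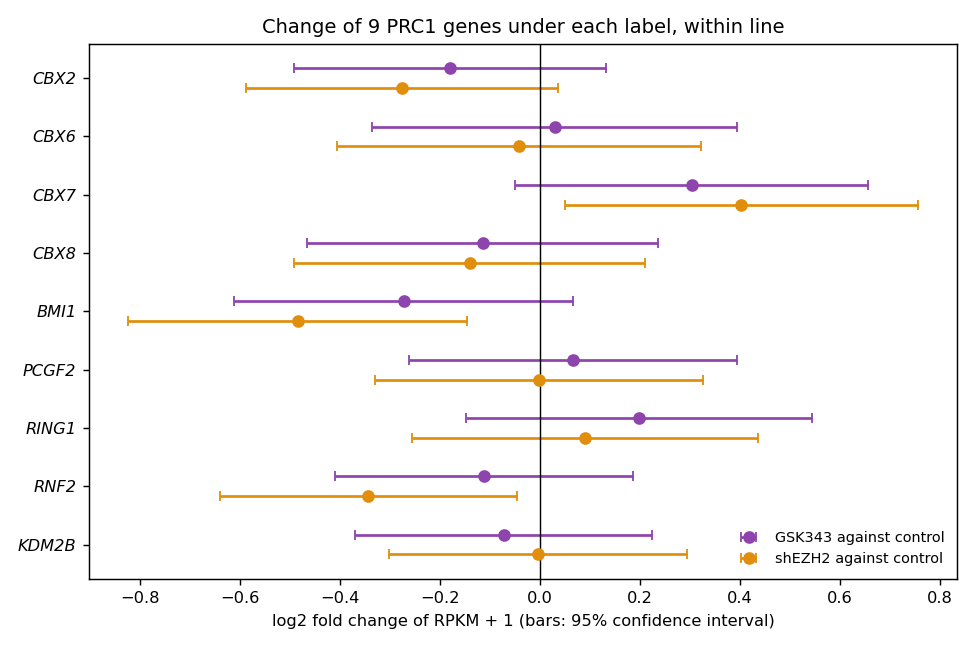
Log2 fold change of RPKM + 1 within line (horizontal axis) for each PRC1 gene (vertical axis), for GSK343 against control and shEZH2 against control; points are limma estimates over 3 lines and bars are 95% confidence intervals. BMI1 under shEZH2 lay lowest at -0.48 and CBX7 under shEZH2 highest at 0.40, and no gene passed the adjusted threshold.

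Among the chromobox readers, CBX7, whose product binds H3K27 methylation and which can repress the INK4 locus, had the largest positive estimates of the 9 genes under both labels. It had 1.34, 1.53 and 1.72 RPKM in the GSK343 libraries of MDA-MB-436, MDA-MB-453 and MDA-MB-231, and 1.11, 1.42 and 2.88 RPKM in the shEZH2 libraries, against 0.910, 0.774 and 1.53 RPKM in the controls. Every library of both labels was above the control of its own line, and the groups overlapped only through the MDA-MB-231 control, which was the highest control. The log2 fold change was 0.40 ± 0.35 under shEZH2 (adjusted p = 0.128) and 0.30 ± 0.35 under GSK343 (adjusted p = 0.259). Because 1 was added to values near 1 RPKM, these understate the ratio. Of its exon bases 17.9% are shared with an antisense gene and 3.67% with a pseudogene, so its low level is uncertain.

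CBX2, which compacts chromatin in PRC1, had 5.37, 4.56 and 4.34 RPKM in the GSK343 libraries of MDA-MB-436, MDA-MB-453 and MDA-MB-231, and 4.60, 4.23 and 4.29 RPKM in the shEZH2 libraries, against 5.47, 4.77 and 6.38 RPKM in the controls. All 3 shEZH2 values lay below all 3 controls, as for 11.9% of all genes tested, and CBX2 was the only member whose groups did not overlap under either label. The separation was narrow, between 4.60 RPKM in the shEZH2 library of MDA-MB-436 and 4.77 RPKM in the MDA-MB-453 control. By counting error alone their 95% intervals overlapped (4.19 to 5.04 and 4.33 to 5.24 RPKM). The GSK343 values overlapped the controls (9.7% of all genes did not). The log2 fold change was -0.28 ± 0.31 under shEZH2 (adjusted p = 0.226) and -0.18 ± 0.31 under GSK343 (adjusted p = 0.453). Its neighbour CBX8, another reader that takes part in canonical PRC1, had 2.16, 3.11 and 4.43 RPKM in the GSK343 libraries of the same lines, and 1.94, 3.42 and 4.14 RPKM in the shEZH2 libraries, against 3.05, 2.62 and 5.10 RPKM in the controls. In MDA-MB-453 both labels were above the control, and in the other lines below it. Its log2 fold change was -0.11 ± 0.35 under GSK343 (adjusted p = 0.688) and -0.14 ± 0.35 under shEZH2 (adjusted p = 0.606).

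CBX6, the most abundant of the member readers, had 18.0, 16.3 and 13.8 RPKM in the GSK343 libraries of MDA-MB-436, MDA-MB-453 and MDA-MB-231, and 16.9, 15.5 and 13.2 RPKM in the shEZH2 libraries, against 15.1, 13.2 and 19.0 RPKM in the controls. MDA-MB-231 had the lowest value under each label and the highest among the controls. The log2 fold change over lines was therefore near 0, at 0.03 ± 0.36 under GSK343 (adjusted p = 0.936) and -0.04 ± 0.36 under shEZH2 (adjusted p = 0.893), and the GSK343 estimate became -0.08 after rescaling by median ratios. KDM2B, the CpG-island binding demethylase of variant PRC1, had 5.49, 4.72 and 3.64 RPKM in the GSK343 libraries of the same lines, and 5.93, 4.67 and 4.07 RPKM in the shEZH2 libraries, against 5.42, 4.57 and 4.62 RPKM in the controls. Only MDA-MB-231 lay clearly below its control. Its log2 fold change was -0.07 ± 0.30 under GSK343 (adjusted p = 0.775) and -0.00396 ± 0.30 under shEZH2 (adjusted p = 0.989).

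The inhibitor and hairpin labels were also set against each other. Differences between GSK343 and shEZH2 ran from -0.10 to 0.23 on the log2 scale over the 9 genes, with 95% confidence intervals that together reached from 0.731-fold to 1.46-fold. The widest were RNF2 at 0.23 ± 0.30 and BMI1 at 0.21 ± 0.34 (adjusted p = 0.99984 each). In limma 0 of 9 genes passed, as did 0% of all genes, and 0 of 9 had an unadjusted p under 0.05, beside 2.28% of all genes. Whether the response to either label differed between lines was tested with limma's F-test, which 0 of 9 genes passed (0.0231% of all genes did). At an unadjusted p under 0.05 there were 2 (28.6% of all genes), CBX6 with adjusted p = 0.0984 and CBX8 with adjusted p = 0.139. For CBX6 the mean log2 response was 0.20 in MDA-MB-436, 0.25 in MDA-MB-453 and -0.46 in MDA-MB-231. CBX6 passed when the GSK343 or the shEZH2 library of MDA-MB-231 was left out (adjusted p = 0.0225 and 0.0273), and CBX8 and BMI1 when MDA-MB-231 was left out as a whole (adjusted p = 0.0380 and 0.0424). Under these omissions 30.6%, 31.2% and 26.1% of all genes passed as well. In 4 of 9 genes (CBX6, CBX8, RING1 and KDM2B) both labelled libraries of 1 line were above their control and both of another line below theirs, as in 40.3% of all genes.

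Cell line accounted for most of the variation of several PRC1 genes. On the log2 scale the line explained 86.5% of the variance of RNF2, 84.0% of RING1, 82.5% of KDM2B and 80.8% of CBX8, against a median of 63.4% over all genes tested. It explained only 16.5% for CBX2 and 14.9% for CBX6, and for CBX2 the label explained more, at 53.1%. The label explained 39.4% for BMI1, 30.7% for CBX7, 10.8% for RNF2 and less for the other members, against a median of 12.4% over all genes. CBX2 nevertheless did not pass the test under either label. Between MDA-MB-436 and MDA-MB-231, 6 of 9 genes passed limma's test, a share close to the 63.4% of all genes that did, with 3 higher (34.8% of all genes) and 3 lower (28.6%) in MDA-MB-436. Leaving out the MDA-MB-453 libraries also gave 6. Here the 3 differently labelled libraries of a line stand in for replicates, so the p-values do not measure the spread between repeated cultures of a line.

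RNF2 was higher in MDA-MB-436, with 17.6, 14.3 and 16.3 RPKM under GSK343, shEZH2 and control, against 7.99, 6.35 and 9.07 RPKM in MDA-MB-231 (log2 difference 0.96 ± 0.30, adjusted p = 7.25e-05). RING1 ran the other way, with 3.62, 2.78 and 2.75 RPKM in MDA-MB-436 against 6.41, 5.51 and 6.60 RPKM in MDA-MB-231 (-0.83 ± 0.35, adjusted p = 0.000705). For neither ligase did the 2 lines overlap, nor for 4 other genes, 6 of 9 in all (64.9% of all genes). BMI1 was higher in MDA-MB-436 by 0.48 ± 0.34 (adjusted p = 0.0175) and KDM2B by 0.38 ± 0.30 (adjusted p = 0.0300). CBX8 and CBX7 were lower, with differences of -0.73 ± 0.35 (adjusted p = 0.0019) and -0.50 ± 0.35 (adjusted p = 0.0175). CBX6 (0.13 ± 0.36, adjusted p = 0.510), CBX2 (0.05 ± 0.31, adjusted p = 0.776) and PCGF2 (-0.25 ± 0.33, adjusted p = 0.166) did not pass. The 3 smaller calls each rested on single libraries. CBX7 no longer passed without the shEZH2 library of MDA-MB-231 or of MDA-MB-436 (-0.37 to -0.34). BMI1 was lost without either of these or the GSK343 library of MDA-MB-436 (0.41 each), and KDM2B without any of those 3, the GSK343 library of MDA-MB-231 or the shEZH2 library of MDA-MB-453 (0.31 to 0.38). KDM2B was also lost after rescaling by median ratios (0.28, adjusted p = 0.0765) or to a common sum (0.39, adjusted p = 0.0519).

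**Figure D3:**
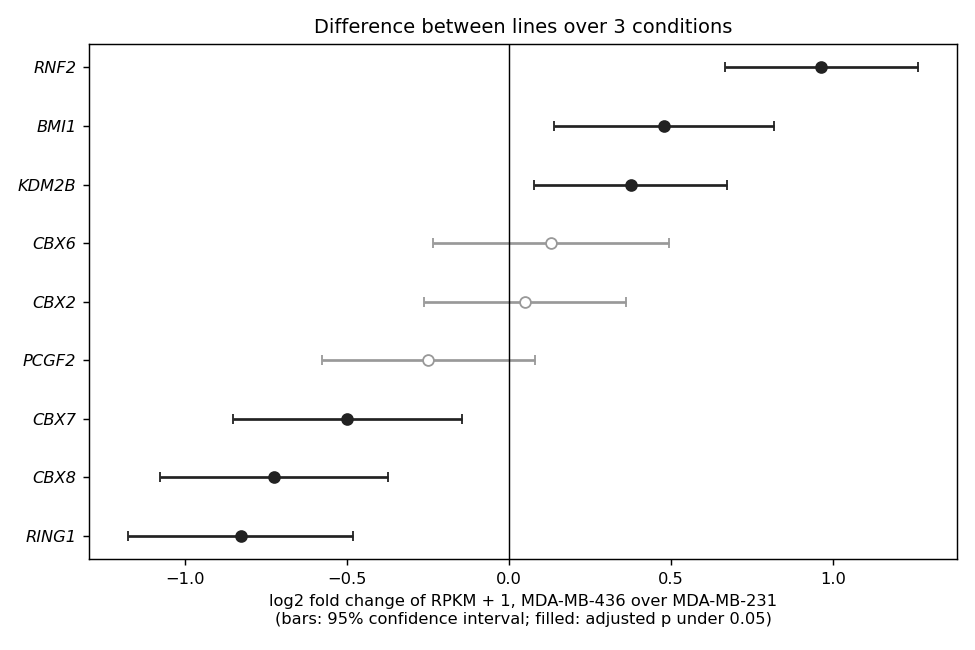
Log2 fold change of RPKM + 1 of MDA-MB-436 over MDA-MB-231 (horizontal axis) for each PRC1 gene (vertical axis) over the 3 conditions; bars are 95% confidence intervals of the limma estimate and filled points passed an adjusted p of 0.05. RNF2 stood highest at 0.96 and RING1 lowest at -0.83.

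The opposite line differences of the ligases separated the ratio between them in MDA-MB-436 from that in MDA-MB-231. On the RPKM scale the RNF2 to RING1 ratio in MDA-MB-436 was 4.86 under GSK343, 5.14 under shEZH2 and 5.94 in the control. The MDA-MB-453 libraries gave 3.16 under GSK343 and 2.53 under shEZH2, against 5.21 in the control, and those of MDA-MB-231 gave 1.25 and 1.15, against 1.37. The ratio was therefore lower than the control under both labels in every line, with no overlap between MDA-MB-436 and MDA-MB-231, while the MDA-MB-453 control lay within the MDA-MB-436 range. Similarly, the BMI1 to PCGF2 ratio was 2.10 under GSK343 and 1.73 under shEZH2, against 2.08 in the control of MDA-MB-436. It was 1.57 and 1.36, against 2.69, for MDA-MB-453, and 1.04 and 1.05, against 1.31, for MDA-MB-231, so the GSK343 library of MDA-MB-436 was the only one not below its control. These ratios compare RNA per length and were not tested. RING1 had 84 reads in the MDA-MB-436 control and 90 in the shEZH2 library of that line, a counting error of 10.9% and 10.5%. Small differences in the RNF2 to RING1 ratio are therefore uncertain, and the single control of a line enters both of its comparisons.

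**Figure D4:**
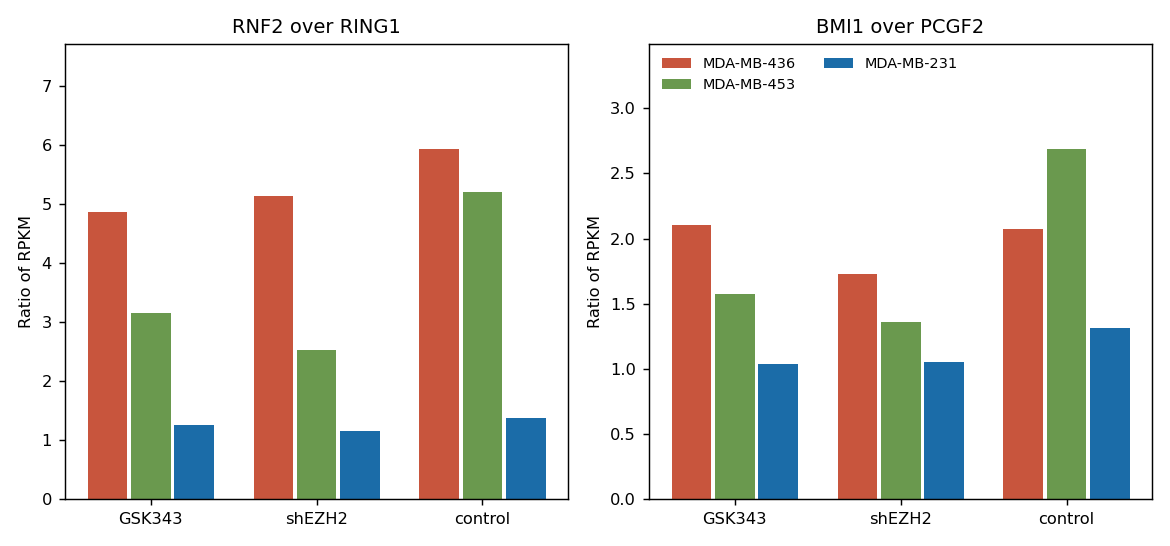
Ratio of RPKM (vertical axis, from 0) of RNF2 to RING1 (left panel) and of BMI1 to PCGF2 (right panel) in each library, by label (horizontal axis) and line (colour); each bar is 1 library. The RNF2 to RING1 ratio was 4.86 to 5.94 in MDA-MB-436 and 1.15 to 1.37 in MDA-MB-231.

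The 4 member CBX genes could also be set beside each other as shares of their summed RPKM. CBX6 was the largest share in every library, at 53.8% to 68.8% of the sum. CBX2 made up 17.9% to 20.0% under GSK343 and 17.2% to 18.7% under shEZH2, against 20.0% to 22.3% in the controls. CBX7 made up 4.99% to 7.08% under GSK343 and 4.51% to 11.8% under shEZH2, against 3.61% to 4.78% in the controls. The CBX2 share was lower, and the CBX7 share higher, than in the control of the same line in all 6 labelled libraries, without a test.

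Of 28 other PRC1 subunit genes 27 were tested, and for the mean of both labels 2 rose (12.2% of all genes did) and 3 fell (4.3%), so that 5 of 27 passed, near the 16.5% of all genes, with a median log2 fold change of -0.05 beside 0.05 over all genes. BCOR, a corepressor scaffold of variant PRC1, had 24.7, 18.8 and 6.42 RPKM in the GSK343 libraries of MDA-MB-436, MDA-MB-453 and MDA-MB-231, and 23.7, 16.2 and 9.94 RPKM in the shEZH2 libraries, against 12.3, 11.2 and 4.97 RPKM in the controls. Every library was above the control of its own line, though the groups overlapped, and BCOR rose by 0.71 ± 0.32 (adjusted p = 0.00886). Without the MDA-MB-453 libraries it did not pass (0.76, adjusted p = 0.0756). Its paralog BCORL1 rose by 0.54 ± 0.30 (adjusted p = 0.0216). BCORL1 had 8.27, 10.6 and 6.96 RPKM in the GSK343 libraries and 8.59, 9.26 and 9.70 RPKM in the shEZH2 libraries, against 5.60, 5.46 and 6.25 RPKM in the controls of the same lines. Its values did not overlap the controls, as for 9.7% of all genes under GSK343 and 11.9% under shEZH2. It did not pass without the GSK343 or control library of MDA-MB-453 or the shEZH2 library of MDA-MB-231 (0.43 to 0.50), nor without MDA-MB-453 or MDA-MB-436 as a whole (0.43 to 0.55).

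Those that fell were WDR5, a WD40 scaffold shared with other chromatin complexes (-0.45 ± 0.26, adjusted p = 0.0270), USP7, a deubiquitinase found with variant PRC1 (-0.41 ± 0.27, adjusted p = 0.0441), and TFDP1, an E2F partner (-0.40 ± 0.27, adjusted p = 0.0477). None of these 3 calls was robust to leaving out a library. USP7 was lost without any of the 9 libraries (-0.49 to -0.28). WDR5 was lost without any library other than the GSK343 library of MDA-MB-231 and the shEZH2 library of MDA-MB-453 (-0.49 to -0.39), and TFDP1 without any other than the GSK343 and control libraries of MDA-MB-231 (-0.41 to -0.30). By label, BCOR was the only gene of the list past the threshold under GSK343 (0.66, adjusted p = 0.0358), and BCOR (0.76, adjusted p = 0.0173), BCORL1 (0.59, adjusted p = 0.0349) and WDR5 (-0.50, adjusted p = 0.0395) passed under shEZH2. These calls by label rested on single libraries as well. BCOR was lost under GSK343 without any of the 3 controls or the GSK343 library of MDA-MB-436 or MDA-MB-453 (0.54 to 0.71). Under shEZH2 it was lost without the MDA-MB-436 or MDA-MB-453 control or the shEZH2 library of MDA-MB-231 (0.61 to 0.81). BCORL1 was lost without either of those controls or any of the 3 shEZH2 libraries (0.48 to 0.64), and WDR5 without any of the 9 libraries (-0.58 to -0.39). Under GSK343, BCOR was also lost after rescaling by median ratios (0.55, adjusted p = 0.0647) or to a common sum (0.60, adjusted p = 0.0770), and WDR5 passed after the median ratios (-0.51, adjusted p = 0.0482). Under shEZH2, BCORL1 was lost after the median ratios (0.50, adjusted p = 0.0639).

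**Figure D5:**
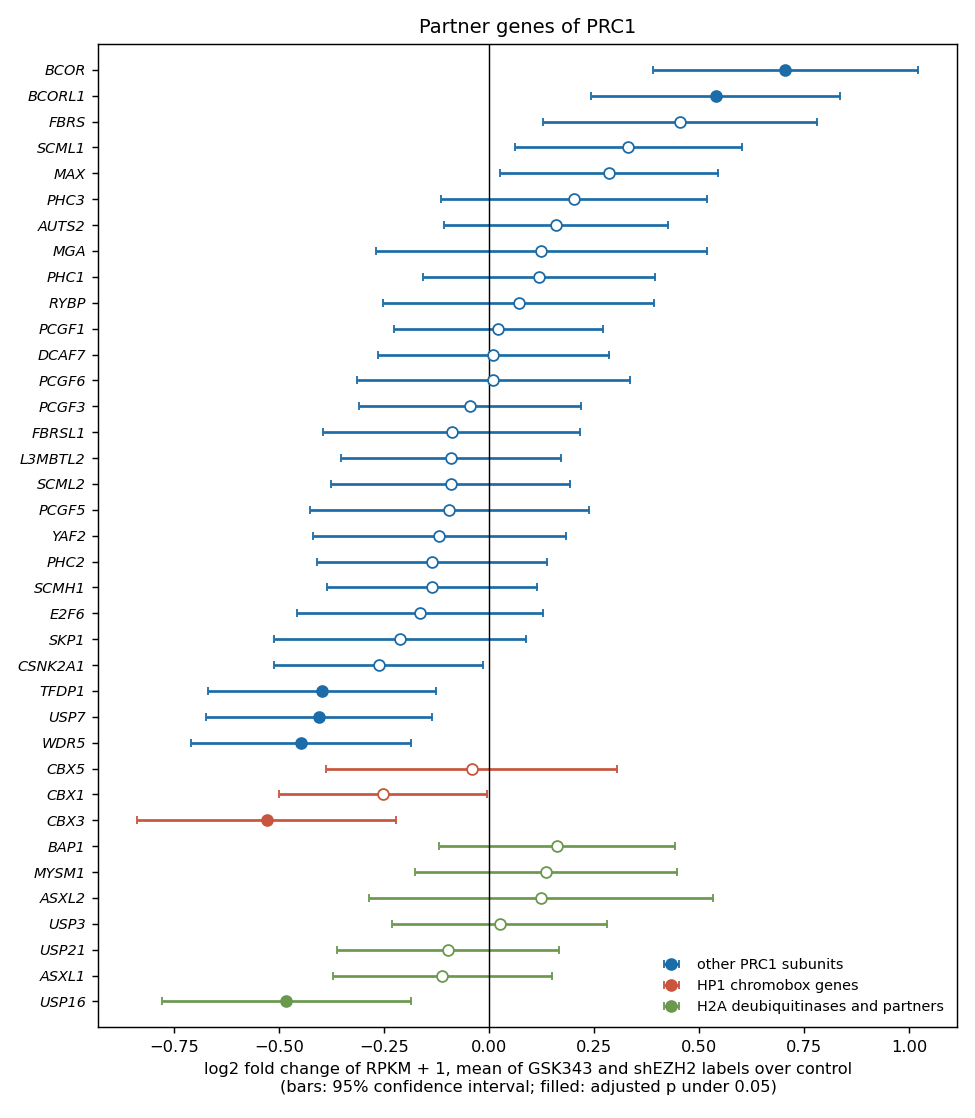
Log2 fold change of RPKM + 1 for the mean of the GSK343 and shEZH2 labels against control (horizontal axis) of other PRC1 subunits, HP1 chromobox genes, and H2A deubiquitinases with their partners (vertical axis, by colour); bars are 95% confidence intervals of the limma estimate and filled points passed an adjusted p of 0.05. BCOR lay highest at 0.71 and CBX3 lowest at -0.53.

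Chromobox genes of the HP1 family, which bind H3K9 methylation and belong to no canonical PRC1, were looked at beside the CBX members. CBX3 fell by 0.53 on the log2 scale (adjusted p = 0.0266), while CBX1 (-0.25, adjusted p = 0.143) and CBX5 (-0.04, adjusted p = 0.878) did not pass. Thus 1 of 3 fell, beside 4.3% of all genes, and 16.5% of all genes passed in either direction. CBX3 did not pass without the control or shEZH2 library of MDA-MB-436 or the control or GSK343 library of MDA-MB-453 (-0.51 to -0.38). Of 8 genes for enzymes and partners that remove the H2A ubiquitin mark 7 were tested and 1 fell, beside the same 4.3% and 16.5% of all genes. This was USP16, at -0.48 (adjusted p = 0.0326), whereas BAP1 (0.16), MYSM1 (0.14) and ASXL1 (-0.11) did not pass. USP16 was lost without any of the 3 shEZH2 libraries or the GSK343 or control library of MDA-MB-453 (-0.49 to -0.30).

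At the INK4 locus, the classic PRC1 target, neither gene passed. CDKN2A had 42.5, 18.5 and 0.0626 RPKM in the GSK343 libraries of MDA-MB-436, MDA-MB-453 and MDA-MB-231, and 44.2, 18.6 and 0.0505 RPKM in the shEZH2 libraries, against 54.1, 17.3 and 0 RPKM in the controls. The values followed the line and not the label, with MDA-MB-231 at or near 0 throughout (-0.05, adjusted p = 0.824). CDKN2B had 4.55 and 2.28 RPKM in the GSK343 libraries of MDA-MB-436 and MDA-MB-453 and 4.24 and 1.67 RPKM in the shEZH2 libraries, against 1.95 and 0.918 RPKM in the controls, and it was listed at 0 in all 3 libraries of MDA-MB-231. Its log2 fold change was 0.50 (adjusted p = 0.0526), which includes MDA-MB-231 with a difference of 0. CDKN2B passed without the control or the GSK343 library of MDA-MB-231 (0.58 to 0.75). It also passed in limma without MDA-MB-231 as a whole (0.75, adjusted p = 0.0305) and with robust variances (adjusted p = 0.0442). Of the PRC2 core, EZH2 fell (-1.44, adjusted p = 0.000962), while EZH1 (0.37), SUZ12 (-0.17) and EED (-0.12) did not pass.

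Marker lists of other cell states were read beside these values, with 12.2% of all genes higher and 4.3% lower for the mean of both labels. Of 6 proliferation genes 2 fell, PCNA (-0.61, adjusted p = 0.00876) and PLK1 (-0.63, adjusted p = 0.0130), and PLK1 was lost when the MDA-MB-436 control was left out (-0.51). PCNA passed without each single library, but not without all libraries of MDA-MB-231 or of MDA-MB-453 (-0.58 and -0.55). The summed RPKM of the 6 was 330 to 362 under GSK343 and 355 to 479 under shEZH2, against 451 to 529 in the controls. Of 5 mesenchymal markers 3 fell, and their sum was 545 to 841 under GSK343 and 555 to 863 under shEZH2, against 821 to 1206 in the controls. Of 6 luminal markers 1 fell, with sums of 141 to 200.1 under GSK343 and 137 to 208 under shEZH2, against 152 to 257 in the controls. Across lines, all these ranges overlapped the controls other than that of the proliferation genes under GSK343. Within each line the mesenchymal and the proliferation sums were below the control under both labels. The smallest gap was for proliferation in MDA-MB-231 under shEZH2 (479 against 483). Not every gene followed its sum. PCNA, PLK1, VIM, CAV1 and AXL were below the control in every line under both labels. MCM2 was above it in MDA-MB-436 and MDA-MB-453 under both labels, and MKI67 in MDA-MB-436. TOP2A, CCNB1, CD44 and MSN were above it in MDA-MB-231 under shEZH2. The luminal sum was below the control in MDA-MB-436 and MDA-MB-231 and above it in MDA-MB-453 (164 and 172, against 152). Such sums weigh abundant genes most, and the luminal genes did not move together. KRT18 was below the control of its line in every labelled library, and KRT8 in all but the shEZH2 library of MDA-MB-453. FOXA1 and SPDEF were above it in every labelled library, though SPDEF had only 0.0623 to 0.117 RPKM in MDA-MB-436. The part of these markers in the values of BMI1, CBX7 and the genes that passed was not tested.

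The genes most like BMI1 and CBX7 over the 9 libraries, by Pearson correlation of log2 values centred within each line, were named as a description. For BMI1 they were EPC2 (r = 0.993), GCLM (r = 0.989) and MESDC2 (r = 0.988). For CBX7 they were KIAA1161 (r = 0.990), SIDT2 (r = 0.984) and PIP5KL1 (r = 0.983). The points share the same 9 libraries, and the most extreme of 12965 genes were picked.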

How the data were processed

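The authors deposited 1 table of RPKM for 58037 genes in 9 columns, all used (0 columns had no sample), assigned to line and treatment by their headers. Per the submitters' processing notes, STAR, HTSeq and GRCh38 were used; the sources used here give no version, annotation or strand setting. Multiplied by GENCODE 29 exon lengths, the deposited RPKM gave whole reads within 0.05 of a read for the members other than KDM2B, whose annotation version differs.

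Genes with at least 1 RPKM in at least 3 libraries (12965, all 9 members among them) were tested on log2(RPKM + 1) with limma 3.58.1 (R 4.3.3, statmod 1.5.0), with treatment and line as terms, a mean-variance trend and 4 residual degrees of freedom. Two-sided p-values were adjusted after Benjamini and Hochberg across these genes (threshold 0.05). The F-test of line by targeted state, with GSK343 and shEZH2 as replicates of that state, left 3. Fold changes are of RPKM + 1 and understate those of low genes. Line serves as the replicate block because libraries with the same number come from the same line. Libraries centred on the mean of their label group correlated at 0.863 to 0.953 within MDA-MB-436 and MDA-MB-231. The correlations within MDA-MB-453 were lower, at 0.358 to 0.487, and those between lines were -0.914 to 0.0903. Centring over the 3 lines of a group itself lowers the values between lines.

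The members and lists were chosen with earlier results of these data known. Named genes are all members, EZH2, up to 4 genes per list with the smallest p for the mean of both labels, any further listed gene past the threshold, and the 3 genes most correlated with each of 2 members. Some listed genes are not reported here. The fits were tested on simulated data. Alternatives were other pseudocounts, filters, scalings, variance models, fits without the block or with 6 libraries, and leaving out each library or line. Promoter sequences are from RefSeq (GRCh38.p14).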

Additional observations from a re-analysis of the deposited data

Results flagged for a closer look

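For 4 of the 9 genes, both labelled libraries of 1 line moved one way against their control while both of another line moved the opposite way. The same held for 40.3% of all genes tested. The F-test of the difference between lines did not pass for any of them. CBX6 had mean log2 responses of 0.20 in MDA-MB-436, 0.25 in MDA-MB-453 and -0.46 in MDA-MB-231, a range of 0.71 (adjusted p = 0.0984). CBX8 had -0.41, 0.24 and -0.21 in the same lines, a range of 0.64 (adjusted p = 0.139). RING1 had 0.16, 0.41 and -0.13, a range of 0.54 (adjusted p = 0.302), and KDM2B had 0.06, 0.03 and -0.21, a range of 0.27 (adjusted p = 0.446). Each line has a single control library, which enters both of its responses.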

How the results depend on the processing

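No member passed under GSK343, or between GSK343 and shEZH2, in any alternative. Median-ratio scaling gave 2 members under shEZH2 (BMI1, RNF2; 1416 of 12893 genes tested) and 1 for the mean of both labels (BMI1; 17.7%). Leaving out a library or line gave 0 to 1 members under shEZH2 and for the mean of both (BMI1 without the MDA-MB-436 control, -0.63 and -0.52; 12.5% and 15.8% of all genes). For the response by line it gave 0 to 2 members: CBX8 (adjusted p = 0.0380) and BMI1 (adjusted p = 0.0424) without MDA-MB-231, and CBX6 (adjusted p = 0.0225 or 0.0273) without its GSK343 or shEZH2 library, beside 26.1%, 30.6% and 31.2% of all genes. Between lines it gave 3 to 6 members, 3 without the shEZH2 library of MDA-MB-436 or MDA-MB-231 (53.3% and 54.9% of all genes). Between lines a mean of at least 5 RPKM left 4 members and 2 calls (63.6% of all genes), median ratios and a common sum 5 calls each without KDM2B (63.5% and 61.4%), and no filter 4 calls without BMI1 and CBX7 (25.9%). The cause of these shifts was not tested. Without the replicate block, which is justified by the shared line, 0 members and 2, 2 and 3 genes in all passed under GSK343, shEZH2 and both. With no filter these counts were 14, 15 and 186, and for the response by line 887 against 3, which reached 4049 when a library or line was left out.

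Some estimates near 0 changed sign. Median-ratio scaling gave -0.0786 (CBX6) and -0.0346 (PCGF2) under GSK343, -0.0641 (PCGF2) for both labels and -0.0468 (CBX2) between lines. A common sum gave -0.0331 (CBX6, GSK343) and 0.00126 (PCGF2, shEZH2), and a pseudocount of 0.1 gave 0.14 (CDKN2A, both labels). Leave-one-out ranges under GSK343 were -0.10 to 0.26 (CBX6), -0.30 to 0.0265 (CBX8), -0.0348 to 0.12 (PCGF2) and -0.13 to 0.0277 (KDM2B). Under shEZH2 they were -0.17 to 0.19 (CBX6), -0.35 to 0.0199 (CBX8), -0.12 to 0.16 (PCGF2), -0.11 to 0.25 (RING1) and -0.0607 to 0.0821 (KDM2B). For both labels they were -0.13 to 0.22 (CBX6), -0.31 to 0.0136 (CBX8), -0.0302 to 0.11 (PCGF2), -0.0887 to 0.0477 (KDM2B), -0.18 to 0.0682 (CBX5), -0.0440 to 0.29 (MYSM1), -0.12 to 0.0857 (CDKN2A), -0.37 to 0.0448 (SUZ12) and -0.25 to 0.00973 (EED). Between lines the range for CBX2 was -0.0428 to 0.17.

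Over 77 single-gene results and 1562 alternative values, 1339 kept direction and side of the threshold, 139 lost the call, 23 gained it and 61 changed sign. The alternative with only the 6 libraries of a comparison does not apply to the mean of both labels and the response by line, which use all 9. Fits without the block were not possible for the response by line and the lines. The F-test had no fit without a line's only control. Precision is set mainly by 3 lines with 1 library per condition.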
